A study of Mus musculus with 2 samples.

Results

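The genes described here encode proteins of the B cell surface together with a pair of Fc-receptor-type proteins: Ms4a1, Cd22, Cd72, Fcrla, Cr2, Cd37, Fcer2a, Cd40 and Ly86. Their probe sets were all those on the array whose only gene symbol in the platform annotation was 1 of these 9, which gave 17 of 45037 probe sets, or 9 of 18161 named genes. All 9 were found under their current symbols, and no probe set named a member together with another gene. Cd40 and Fcrla had 3 probe sets each, Ms4a1, Cd22, Cd37 and Fcer2a had 2, and Cd72, Cr2 and Ly86 had 1.

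The values come from 2 Affymetrix arrays of thymocyte RNA from C57BL/6J mice, 1 titled TKO and 1 titled DKO. The cells were negative for lineage markers after depletion on beads, and are named DN (double-negative) thymocytes in the series title. By the series' design text, TKO cells were LckCre(+) and DKO cells LckCre(-), and mice of either label were Cdkn2a-/-, Ring1A-/- and Ring1Bfl/fl, so that loss of Cdkn2a and Ring1A is shared and Ring1B is deleted by a recombinase driven from the Lck promoter, active in T lineage cells. The samples' own genotype field differs, giving Ring1A, Ring1B and Cdkn2a as lost in TKO, and Ring1A and Ring1B in DKO. Ring1A and Ring1B put ubiquitin on histone H2A as part of Polycomb repressive complex 1. The labels give neither age, sex nor the number of mice behind each RNA. With 1 array for each label there is no spread between animals, no test was possible, and "higher" and "lower" describe these 2 arrays only.

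B cells carry a set of surface proteins that tune the B cell receptor. CD22 and CD72 are inhibitory co-receptors whose tails recruit the phosphatase SHP-1, while complement receptor CR2, in a complex with CD81, amplifies the signal. CD40 receives help from T cells, and CD23, encoded by Fcer2a, binds IgE. Several of these genes, among them Cr2, Fcer2a and Cd40, are best known from mature B cells, whereas Cd22, Cd72 and Ms4a1 (CD20) are transcribed earlier in the lineage. T cell progenitors are not usually counted among the cells that express them, although Cd37 is found on T and myeloid cells at lower levels than on B cells, and Cd40 and Ly86 are also used by dendritic cells and macrophages.

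Promoter windows are shown for those members past 2-fold upward in TKO for which RefSeq windows of build GRCm38.p6 were at hand, with that of Cd37, whose brightest probe set was not, for comparison. Each window runs from 250 bases before to 50 bases after the annotated start and reads 5′ to 3′ on the gene's strand. Capitals mark every match, on either strand, to 4 short motifs of B lineage regulators: CCCNNGGG (the core bound by EBF1), ATGCAAAT (the octamer bound by Oct factors), GAGGAA (a core bound by PU.1 and Spi-B) and CAGGTG (an E-box bound by E2A). No matches overlap in these windows.
Fcrla promoter (chr1:170927534-170927833, minus strand): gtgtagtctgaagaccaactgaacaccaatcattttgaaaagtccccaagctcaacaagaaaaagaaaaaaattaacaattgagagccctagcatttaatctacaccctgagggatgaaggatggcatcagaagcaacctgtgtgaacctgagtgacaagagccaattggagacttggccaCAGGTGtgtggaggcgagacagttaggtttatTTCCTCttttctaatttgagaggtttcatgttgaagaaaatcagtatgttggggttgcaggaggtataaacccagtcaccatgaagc
Cd72 promoter (chr4:43454577-43454876, minus strand): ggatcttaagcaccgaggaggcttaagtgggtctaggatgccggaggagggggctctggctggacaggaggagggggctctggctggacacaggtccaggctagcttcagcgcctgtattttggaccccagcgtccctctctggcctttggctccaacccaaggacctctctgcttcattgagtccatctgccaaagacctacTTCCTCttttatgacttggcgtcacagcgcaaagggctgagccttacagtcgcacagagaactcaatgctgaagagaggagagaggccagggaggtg
Cd22 promoter (chr7:30878979-30879278, minus strand): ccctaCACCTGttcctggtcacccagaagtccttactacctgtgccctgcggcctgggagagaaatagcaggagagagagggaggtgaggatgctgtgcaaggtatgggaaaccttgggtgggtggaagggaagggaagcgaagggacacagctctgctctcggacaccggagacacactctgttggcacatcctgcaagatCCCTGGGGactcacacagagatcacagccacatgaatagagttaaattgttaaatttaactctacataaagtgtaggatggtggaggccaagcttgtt
Ly86 promoter (chr13:37345095-37345394, plus strand): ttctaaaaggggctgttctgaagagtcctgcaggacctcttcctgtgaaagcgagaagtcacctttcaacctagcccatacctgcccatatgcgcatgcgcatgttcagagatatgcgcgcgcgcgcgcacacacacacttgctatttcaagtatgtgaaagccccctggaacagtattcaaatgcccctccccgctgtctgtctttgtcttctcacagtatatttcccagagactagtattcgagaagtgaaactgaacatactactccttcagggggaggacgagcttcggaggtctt
Cd37 promoter (chr7:45238790-45239089, minus strand): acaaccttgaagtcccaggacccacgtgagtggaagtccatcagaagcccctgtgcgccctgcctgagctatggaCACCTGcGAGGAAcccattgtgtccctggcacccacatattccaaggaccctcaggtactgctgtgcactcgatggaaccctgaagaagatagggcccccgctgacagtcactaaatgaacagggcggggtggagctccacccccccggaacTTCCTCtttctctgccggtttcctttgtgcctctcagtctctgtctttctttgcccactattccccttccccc

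Windows were at hand for 7 of the 9 genes. The PU.1 core was found in Fcrla (starting at position -37 from the annotated start), in Cd72 (-47) and at a pair of places in Cd37 (-168 and -23), that is in 3 of 7 genes, and it occurs in 28.3% of all 32851 windows. The EBF core was found in Cd22 only (-48), against 13.7% of all windows. The E-box lay in 5 of the 7 genes, against 20.2% of all windows, and the octamer in 0, against 1.74%. Fcer2a has 3 annotated starts and so more sequence in which a match can occur. The Ly86 window held none of the 4 motifs. Cd37 thus had as many motif kinds as Fcrla although its brightest probe set differed less between the arrays. A match describes letters only and shows no binding.

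A signal is the MAS5 intensity of a probe set on a linear scale. Signals under the median of all probe sets on their array (71.8 on the TKO-labelled array and 68.8 on the DKO-labelled array) were not counted as measured and were raised to that floor for ratios. A ratio with 1 side under the floor is therefore a bound, written "at least". Ratios are TKO-labelled over DKO-labelled, and a gene counts as higher or lower once the ratio reaches 2-fold in that direction. Where a gene has several probe sets, the brightest by mean log2 signal stands for it. Signals of different probe sets are not on a common scale, so levels are compared only between arrays.

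The arrays were set against their labels first. Cdkn2a had 18.5, under the floor, on the TKO-labelled array and 679 on the DKO-labelled array, at least 9.47-fold lower, which goes against the design text, by which Cdkn2a is lost under either label, and matches the samples' genotype field, by which it is lost in TKO only. Ring1 (147 and 133) and Rnf2, the gene of Ring1B (4384 and 4149), were within 2-fold, and whether their probe sets fall inside the deleted exons is not stated in the labels. Xist had 16502 on the TKO-labelled array and 124 on the DKO-labelled array, and the Y-linked Kdm5d had 30.4 and 652, so sex differed together with the label, and the part of each in the ratios that follow cannot be told apart.

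Of the 9 genes, 5 had a TKO-labelled signal 2-fold or more above the DKO-labelled one: Fcrla, Ms4a1, Cd72, Cd22 and Ly86. Cd40 and Cd37 were within 2-fold at their brightest probe set, Cr2 had only a bound of at least 1.39-fold higher, which places it on neither side of 2-fold, 0 genes were at least 2-fold lower, and Fcer2a lay under the floor on both arrays. Of all 11272 genes that cleared the floor somewhere, 3.58% were 2-fold or more higher and 0.523% 2-fold or more lower, and the median log2 ratio was -0.03. The 8 measured members had a median log2 ratio of 1.80, and Cr2 was measured only through the TKO-labelled array. By probe set, 15 of the 17 were measured and 11 of these were 2-fold or more higher, against 2.97% of measured probe sets with 1 gene, and 0 were lower, against 0.51%. Of the 11, 9 were measured on both arrays, and 2, both of Cd40, cleared the floor on the TKO-labelled array only. Without any floor 16 of the 17 signals were larger on the TKO-labelled array, against 49.2% of all probe sets with 1 gene. The exception was the dimmer Fcer2a probe set.

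**Figure D1:**
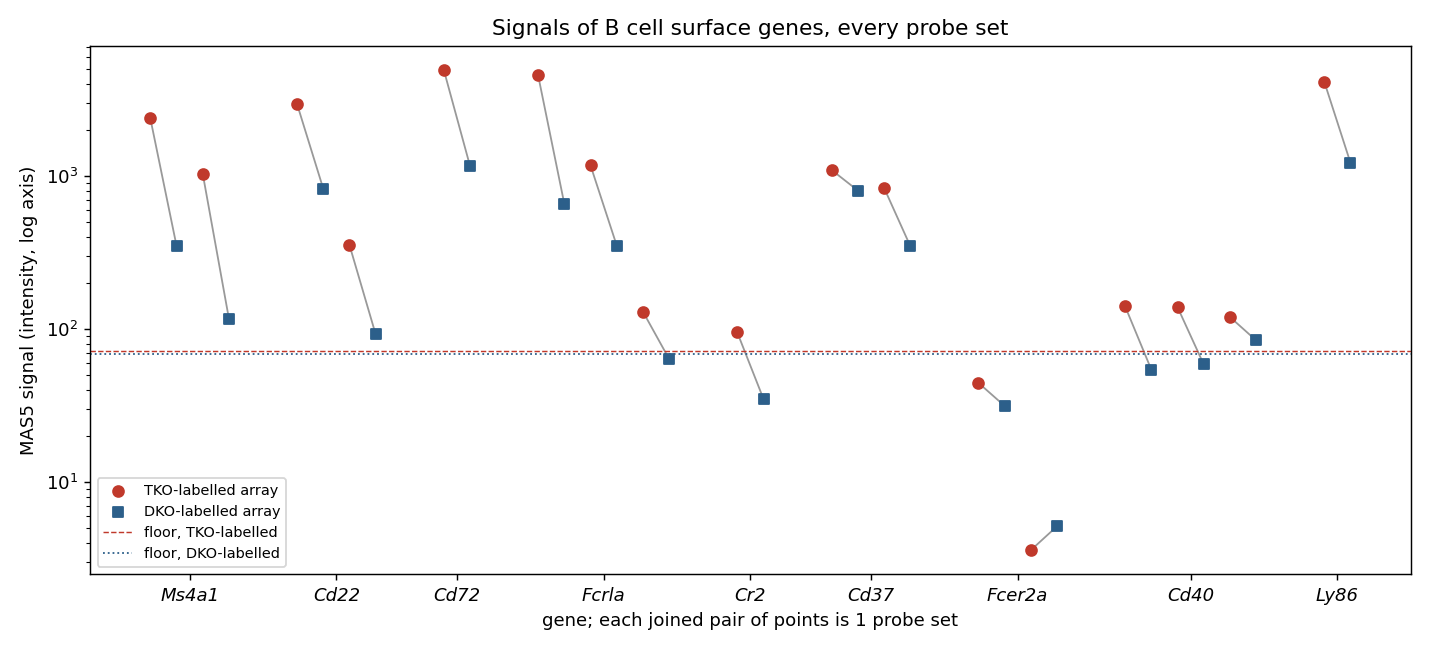
MAS5 signal (log axis) of the 17 probe sets, each a joined pair of points with the TKO-labelled array as a circle at the left and the DKO-labelled array as a square at the right; dashed and dotted lines are the floors of 71.8 and 68.8. Lines slope down to the right for 16 probe sets, those of Fcer2a lie under the floors, and those of Cr2 and Cd40 stay close to them.

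The inhibitory co-receptors were both higher. Cd22, a Siglec that binds sialic acid, had a signal of 2967 on the TKO-labelled array and 829 on the DKO-labelled array at probe set 1419768_at, 3.58-fold higher (log2 ratio 1.84). Its dimmer probe set 1419769_at gave 355 and 92.7, 3.84-fold higher (1.94), so the pair differed by 0.10 on the log2 scale. For scale, log2 ratios of the 2 probe sets of a gene differed by a median of 0.22 over 2825 genes with exactly 2 measured on both arrays, and by up to 0.80 at the 95th percentile. Those pairs were read from the same hybridisations and hold no error between animals. Cd72, a C-type lectin whose ligand is semaphorin 4D, had 4956 on the TKO-labelled array and 1169 on the DKO-labelled array, 4.24-fold higher (log2 ratio 2.08). Its signal stood at percentile 96.4 of the TKO-labelled and 86.6 of the DKO-labelled array, so Cd72 transcript was well above the floor under either label.

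Ms4a1 encodes CD20, a membrane-spanning protein that marks B cells from the pre-B stage and is lost on plasma cells. At probe set 1423226_at it had 2394 on the TKO-labelled array and 352 on the DKO-labelled array, 6.80-fold higher (log2 ratio 2.77). The second probe set, 1450912_at, had 1039 and 117, 8.86-fold higher (log2 ratio 3.15). Only 18 of 11272 measured genes, Ms4a1 included, had a log2 ratio as high as that of its brightest probe set.

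Fcrla encodes an Fc-receptor-like protein that is kept inside B cells, where it binds immunoglobulin. Its brightest probe set, 1419907_s_at, had 4563 on the TKO-labelled array and 659 on the DKO-labelled array, 6.92-fold higher (log2 ratio 2.79), the highest among the brightest probe sets of the 9 genes. Probe set 1425802_a_at gave less, with 1177 and 352, 3.34-fold higher (log2 ratio 1.74). The dimmest, 1419908_at, had 130 on the TKO-labelled array and 63.9, under the floor, on the DKO-labelled array, at least 1.89-fold higher. All 3 probe sets were thus higher on the TKO-labelled array, but the size depended on which was read: without probe sets of the _s_at type, which can match more than 1 transcript, the log2 ratio of Fcrla was 1.74, and averaging its probe sets gave 1.82.

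Ly86 encodes MD-1, a secreted partner that CD180 (RP105) needs to reach the surface of B cells and of some myeloid cells. It had 4150 on the TKO-labelled array and 1224 on the DKO-labelled array, 3.39-fold higher (log2 ratio 1.76). Cd180 itself was dim and within 2-fold, with 173 and 109 (log2 ratio 0.66). Macrophages and monocytes also express Ly86. Of their 12 measured markers 3 passed 2-fold upward and 0 downward, and 9 passed in neither direction. Among those 9, Mertk, Mrc1 and Fcgr1 were under the floor on the DKO-labelled array. They were at least 1.45-fold, at least 1.92-fold and at least 1.10-fold higher, bounds that place them on neither side of 2-fold. Over all measured genes 3.58% were 2-fold or more higher and 0.523% lower. The markers' median log2 ratio was 0.64, with 11 ratios above 0 and 1 below. The one below was Cd163, with 25.9, under the floor, on the TKO-labelled array and 92.0 on the DKO-labelled array. Its ratio is a bound too, at least 1.28-fold lower. The summed signal of the 14 markers was 5255 on the TKO-labelled array and 2504 on the DKO-labelled array. Cd14 and Marco were under the floor on both arrays. The part of macrophages and monocytes in the Ly86 difference was not tested.

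Cd37 encodes a tetraspanin of B cells that is also found on other leucocytes. Its probe sets disagreed on the 2-fold rule. The brighter, 1425736_at, had 1100 on the TKO-labelled array and 807 on the DKO-labelled array, 1.36-fold higher (log2 ratio 0.45). Probe set 1419206_at had 841 and 351, 2.40-fold higher (log2 ratio 1.26). The gap of 0.82 on the log2 scale is just past the 95th percentile for pairs of probe sets given above, so the Cd37 difference has a sign shared by both probe sets and no settled size.

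Cd40, the member of the tumour necrosis factor receptor family through which T cells license B cells, was close to the floor. Probe set 1460415_a_at had 120 on the TKO-labelled array and 84.6 on the DKO-labelled array, 1.42-fold higher (log2 ratio 0.51). The other two probe sets fell under the floor on the DKO-labelled array. Of these 1449473_s_at had 141 on the TKO-labelled array against 54.5, at least 2.05-fold higher, and 1439221_s_at had 140 against 58.9, at least 2.03-fold higher. Which side of 2-fold Cd40 falls on therefore depends on the probe set.

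Cr2, which in the mouse encodes the complement receptors CD21 and CD35, had 95.3 on the TKO-labelled array and 35.0, under the floor, on the DKO-labelled array, at least 1.39-fold higher. Lowering the floor to the 25th percentile made it measured on both arrays, at a log2 ratio of 1.44, past 2-fold. Fcer2a, the low-affinity IgE receptor of follicular B cells, had 44.7 and 31.6 at probe set 1422122_at, and 3.60 and 5.16 at 1451713_a_at, on the TKO-labelled and DKO-labelled arrays in that order. No ratio is given for signals under the floor on both sides. The 3 members with signals near or under the floor were Cr2, Cd40 and Fcer2a. Levels are not compared between genes here, and a link of these low signals to the stage of B cells was not tested. A signal under the floor does not show that a transcript was missing.

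**Figure D2:**
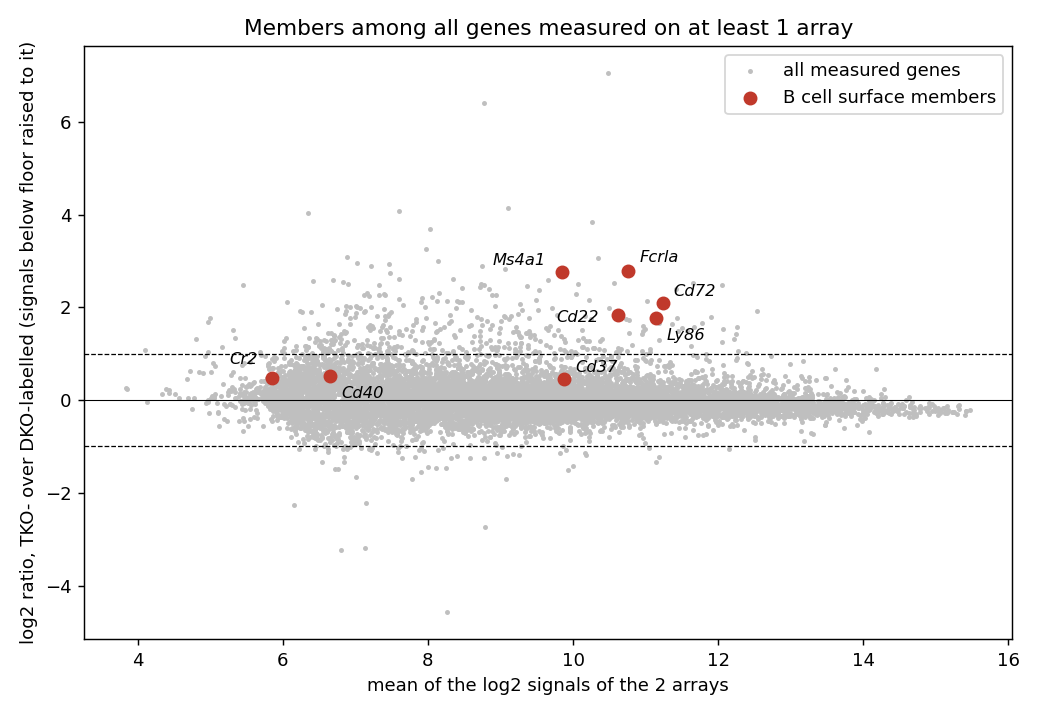
Log2 ratio of TKO-labelled over DKO-labelled signal against the mean log2 signal, for the 11272 measured genes (grey) and the 8 measured members (red); dashed lines are the 2-fold limits. Fcrla, Ms4a1, Cd72, Cd22 and Ly86 lie between log2 ratios of 1.76 and 2.79, and Cd37, Cd40 and Cr2 between 0.45 and 0.51, where the point of Cr2 is a lower bound.

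In order of the log2 ratios of their brightest probe sets the measured members were Fcrla (2.79), Ms4a1 (2.77), Cd72 (2.08), Cd22 (1.84), Ly86 (1.76), Cd40 (0.51), Cr2 (at least 0.47) and Cd37 (0.45). Fcrla and Ms4a1 were closer to each other than the probe sets of either gene, and so were Cd22 and Ly86 relative to the median gap of 0.22, so the order within these pairs is not settled. The place of Fcrla also moved with the probe sets read: at 1.82 as their mean it was below Cd72 (2.08) and Cd22 (1.89), and at 1.74 without the _s_at type it was below Ly86 too. Fcrla, Ms4a1, Cd72, Cd22 and Ly86 had ratios that at most 1.01% of measured genes reached. The lower places of Cd40, Cr2 and Cd37 rest on the floor and on the choice of probe set, since Cr2 is a bound and other probe sets of Cd40 (at least 1.04 and at least 1.02) and Cd37 (1.26) passed 2-fold. Among genes outside the list and measured on both arrays, the 5 whose log2 ratio lay nearest to the members' median of 1.80, over these 2 arrays only, were Fcgr2b (1.80), Cpm (1.80), Lhx2 (1.81), Il6ra (1.81) and Slco2b1 (1.81).

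Partners and ligands of these receptors were mostly within 2-fold. Beside the counts of this list and of those below stand the shares over all measured genes, 3.58% higher and 0.523% lower. Of 7 measured, 1 passed 2-fold upward and 0 downward, and the median log2 ratio was 0.66. The one was Ly96 (MD-2, the relative of MD-1 that pairs with TLR4), with 327 on the TKO-labelled array and 123 on the DKO-labelled array (log2 ratio 1.41), and Tlr4 was at 0.84. Cd81, the tetraspanin of the CR2 complex, had 3828 and 3338 (log2 ratio 0.20). St6gal1, the sialyltransferase that builds the sugar ligand of CD22, was at 0.80, Sema4d, the CD72 ligand, at -0.07, and Adam10, the protease that sheds CD23, at 0.14. Cd40lg, the CD40 ligand of activated T cells, was under the floor on both arrays with 32.2 and 17.4.

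Most signalling genes downstream of the receptors stayed within 2-fold, as did most measured genes (3.58% were higher and 0.523% lower). Of 15 measured, 3 passed 2-fold upward and 0 downward. The median log2 ratio was 0.64, against -0.03 over all measured genes. The 3 act next to the B cell receptor: the adaptor Blnk had 2878 on the TKO-labelled array and 723 on the DKO-labelled array (log2 ratio 1.99), the kinase Syk had 1877 and 659 (1.51), and the kinase Btk had 988 and 354 (1.48). As for the phosphatases recruited to inhibitory receptors, Ptpn6 (SHP-1, recruited by CD22 and CD72) had 4379 and 2816 (log2 ratio 0.64) and Inpp5d (SHIP-1) had 1780 and 1061 (0.75). Plcg2 and Vav1 were at 0.53 each and Grb2 at -0.09. The genes of CD40 signalling were all within 2-fold: Traf5 at 0.83, Relb at 0.68, Map3k14 at 0.65, Traf1 at 0.33, Traf2 at 0.24, Traf6 at -0.04 and Nfkb2 at -0.58 as log2 ratios. Second probe sets of Map3k14 (-0.38), Nfkb2 (0.18) and Tlr4 (-0.33) had the opposite sign.

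Among 27 other measured B cell surface genes, 11 passed 2-fold upward and 0 downward, and the median log2 ratio was 0.66. Fcmr, the receptor for IgM, had 1074 on the TKO-labelled array and 224 on the DKO-labelled array (log2 ratio 2.26). Cd55, a complement regulator, and Cd83, an activation marker, had TKO-labelled signals of 277 and 272 and DKO-labelled signals under the floor, at least 4.03-fold and at least 3.96-fold higher. Fcrl1, a surface relative of Fcrla, had 345 and 93.1 (log2 ratio 1.89).

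Relatives by protein family were not uniformly higher. Their counts stand against 3.58% of all measured genes 2-fold or more higher and 0.523% lower. The Fc receptor and FCRL family, to which Fcrla belongs, had 4 of 9 measured genes past 2-fold upward and 0 downward (median log2 ratio 0.80). Those were Fcmr, Fcrl1, the inhibitory IgG receptor Fcgr2b (2136 on the TKO-labelled array and 612 on the DKO-labelled array, log2 ratio 1.80) and the shared signalling chain Fcer1g (986 and 452, 1.13). Siglecg, the other inhibitory Siglec of B cells, was the only measured gene of the 7 Siglecs beside Cd22, with 1028 and 345 (log2 ratio 1.58). In the MS4A family 1 of 9 measured genes passed 2-fold upward, Ms4a4c at 298 and 116 (log2 ratio 1.37), while the bright Ms4a4b was at 0.66, and the median was 0.20. Ms4a7 was at 0.68, and Ms4a6d, under the floor on the DKO-labelled array, was at least 0.70. The tetraspanins had a median of 0.06 over 18 genes, with 1 higher, Tspan32 (log2 ratio 1.10), and Cd53 at 0.80, Tspan2 at -0.67 and Tspan31 at -0.72. A dimmer Cd53 probe set was at 1.51, past 2-fold. In the tumour necrosis factor receptor family 1 of 14 was higher, Tnfrsf13c, the BAFF receptor, at 831 and 270 (log2 ratio 1.62), and Tnfrsf13b (TACI), another receptor of B cells, was at 0.98, with Tnfrsf9 at 0.84 and Tnfrsf4 at 0.67. Complement receptors and regulators had 1 of 5 higher, Cd55, with Cr1l at 0.32, Cd59a at -0.25 and Itgax at 0.16.

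**Figure D3:**
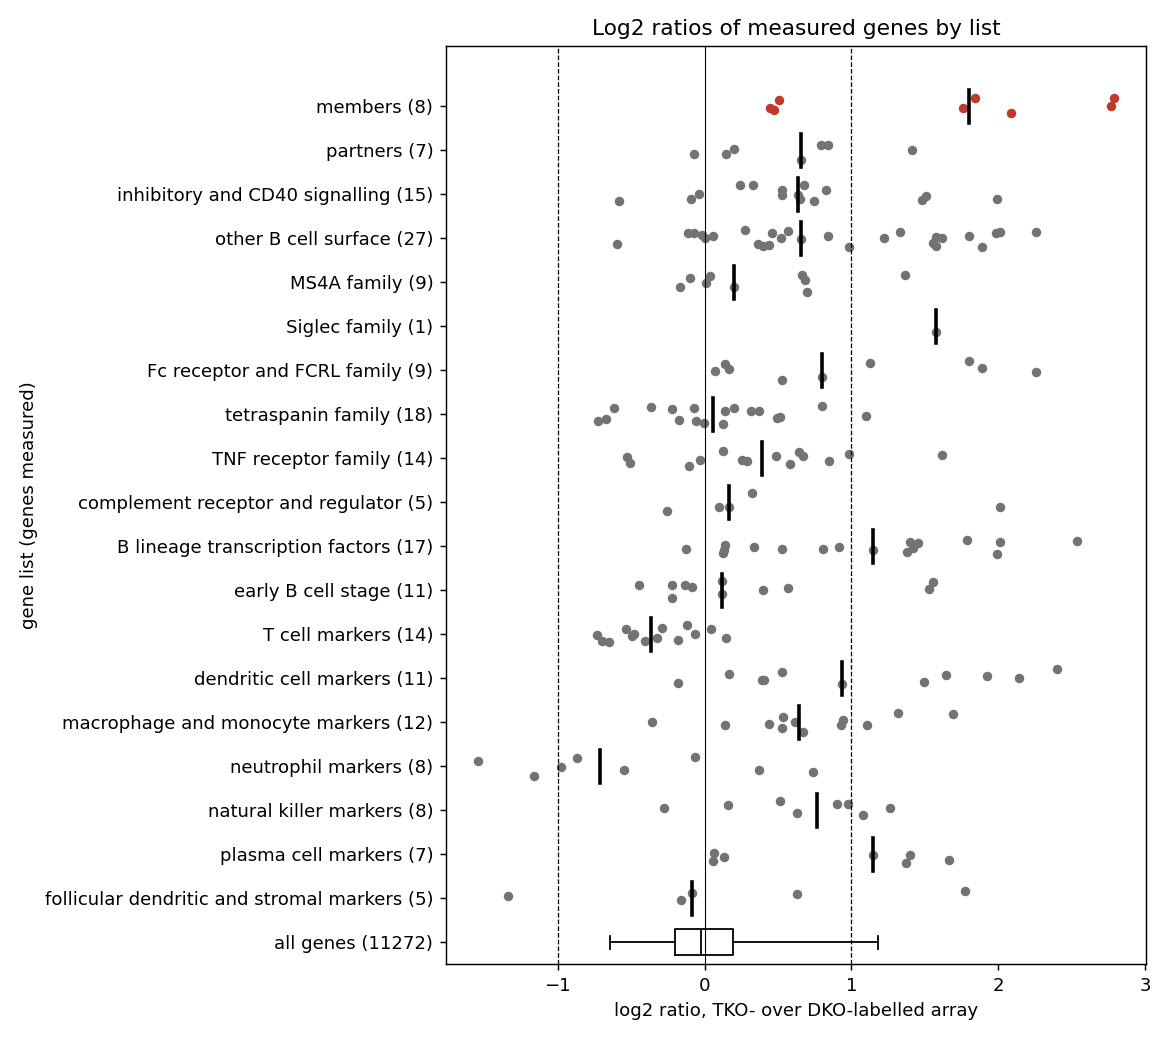
Log2 ratio of TKO-labelled over DKO-labelled signal for each measured gene, by list, with the number of genes in brackets and a black bar at the list's median; the box at the foot gives all 11272 genes with whiskers at the 2.5th and 97.5th percentiles, -0.64 and 1.18. The members (red) have the median furthest to the right, 1.80. The T cell, neutrophil, and follicular dendritic and stromal markers have medians below 0, at -0.36, -0.71 and -0.09, and that of all genes is -0.03. The medians of -0.71 and -0.09 rest in part on bounds.

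The transcription factors of the B lineage had 9 of 17 measured genes past 2-fold upward and 0 downward. Their median log2 ratio was at least 1.14, since it is the ratio of Prdm1, a bound. They include Ebf1 (log2 ratio 2.53), Pax5 (2.01), Mef2c (1.99) and Bach2 (1.79). Genes of early B cell stages had 2 of 11 higher, Cd93 at 1.56 and Vpreb3 at 1.53, and 0 lower, with a median of 0.12, and Il7r was at 0.57 and Dntt at -0.45. Plasma cell markers had 4 of 7 higher and 0 lower, Mzb1 (1.67), Irf4 (1.40), Sdc1 (1.38) and Prdm1 (at least 1.14), and Irf4 and Prdm1 stand in the transcription factor list too.

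Markers of other cells differed in direction. T cell markers were bright on both arrays, with Cd3g at 13607 on the TKO-labelled array and 22057 on the DKO-labelled array (log2 ratio -0.70) and Thy1 at 12791 and 18527 (-0.53). Cd3d was at -0.73 and Ptcra at -0.65, 0 of 14 measured T cell markers passed 2-fold, and Cd4 was under the floor on both arrays while Cd8a had 635 and 616. Their summed signal over 15 genes was 66269.5 on the TKO-labelled array and 94799.6 on the DKO-labelled array. Of the dendritic cell markers 5 of 11 measured passed 2-fold upward and 0 downward, led by the class II genes Cd74 (2.40), H2-Eb1 (2.14), H2-Aa (1.92) and H2-Ab1 (1.65), which B cells express as well, and the fifth was their activator Ciita. These 5 genes carried most of the list's summed signal, with 27121 on the TKO-labelled array and 6798 on the DKO-labelled array, while the other 9 genes summed to 10741 and 8873, and 0 of their 6 measured genes passed 2-fold. Among those 9, Zbtb46 (132 on the TKO-labelled array against 67.7, at least 1.91-fold higher) and Cd209a (91.1 against 37.9, at least 1.32-fold higher) cleared the floor on the TKO-labelled array only, and Flt3, Xcr1 and Siglech were under the floor on both arrays. Such sums add probe sets of unlike scale and are dominated by the brightest. In these bulk RNA samples more cells of a type and more RNA per cell cannot be told apart, and the part of cell composition in the members' ratios was not tested.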

How the data were processed

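RNA of lineage-negative thymocytes was hybridised to 1 array per label. The deposited values are intensity values, 1 per probe set, which the authors made with MAS5, per the submitters' processing notes; its version and settings are not given in the sources used here. MAS5 scales whole arrays, and the 2% trimmed mean was 497 on each. Of 45037 probe sets, 34945 had 1 gene in the platform annotation, 932 had several and 9160 were unnamed. Symbols were updated by Entrez ID (99.4% matched) or alias to a RefSeq table of GRCm38.p6. The floor, ratios and brightest-probe-set rule stand in the report and were computed in Python 3.11.15 with numpy 2.4.6 and pandas 2.3.3, with lowess from statsmodels 0.14.6 and plots from matplotlib 3.10.9. The floor shrinks ratios of dim genes. Named genes were the 9 members, the targeted and sex-linked genes, and all partners and signalling genes. Added to these were the up to 4 genes of each other list that differed most, and the 5 nearest in ratio. Further markers, some measured and some under the floor, were named after their values were seen. The members and lists were chosen with earlier results of these data known. The procedure was run on simulated data in which only bright genes were raised, by well over 2-fold. That run could not test the floor or dim members such as Cr2, Cd40 and Fcer2a. Detection calls were not used, scan batch would coincide with the label, and the number of arrays limits the precision.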

Additional observations from a re-analysis of the deposited data

How the results depend on the processing

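Alternatives were floors at the 25th and 75th percentiles, quantile normalization, centring of the median log2 ratio on 0, subtraction of a lowess trend (span 0.3), averaging of probe sets, and exclusion of _x_at and _s_at probe sets. The count of members 2-fold or more higher was 5 in each but the 25th-percentile floor, where Cr2 made it 6, and the count lower was 0 in all. The median log2 ratio of measured members ran from 1.75 to 1.96. Of 54 ratios of single members under the alternatives, 53 kept their side of 2-fold when bounds were counted at their floored value. The ratios of Cr2 were bounds wherever it was measured except at the 25th-percentile floor. As bounds under 2-fold they place Cr2 on neither side. Fcer2a, measured at the 25th-percentile floor only, was at 0.50 there. At the 75th-percentile floor Cr2 and Cd40 were not measured and Ms4a1 was a bound of 2.52. The count of all genes at least 2-fold higher and lower, 404 and 59, was 961 and 433 at the 25th-percentile floor, 147 and 14 at the 75th, and 270 and 34 as the mean over probe sets. Signals near the floor limit Cr2, Cd40 and Fcer2a. No paired analysis was possible because each label has 1 array.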

Other observations

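Other marker lists gave mixed values. Of 8 measured neutrophil markers 2 were at least 2-fold lower on the TKO-labelled array and 0 higher. The lower ones were the granule gene Ngp (140 on the TKO-labelled array and 408 on the DKO-labelled array, log2 ratio -1.54) and S100a9 (384 and 860, -1.16), with Camp at -0.98 and S100a8 at -0.87. Of the 8 ratios 6 were below 0 and 2 above. Those above were Ltf (155 and 92.8, log2 ratio 0.74) and Mmp9, which cleared the floor on the TKO-labelled array only and was at least 1.29-fold higher. Of 12 macrophage and monocyte markers those at least 2-fold higher were Csf1r (807 and 249, log2 ratio 1.69), the lysozyme gene Lyz2 (2131 and 855, 1.32) and Ccr2 (519 and 242, 1.10), and Mrc1 was at 0.94 or above. Another Csf1r probe set was within 2-fold at 0.73. The 2-fold call of Ccr2 rests on its brightest probe set. With 82.5 on the TKO-labelled array and 58.9, under the floor, on the DKO-labelled array, a dimmer Ccr2 probe set was at least 1.20-fold higher. A further Ccr2 probe set had 47.6, under the floor, on the TKO-labelled array and 81.3 on the DKO-labelled array, at least 1.13-fold lower. The remaining Ccr2 probe set was under the floor on both arrays.

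Natural killer markers had 2 of 8 at least 2-fold higher and 0 lower, Klra8 (1.26) and Klrd1 (1.08), with Klrk1 at 0.98 and Eomes at 0.90 as log2 ratios. Nkg7 was at 0.16, and 7 of the 8 ratios were above 0. The brightest, Gzma, was below 0, with 18012 on the TKO-labelled array and 21801 on the DKO-labelled array (-0.28). The list's summed signal was 23967 on the TKO-labelled array and 25491 on the DKO-labelled array. Among 5 measured follicular dendritic and stromal markers the adhesion molecule Vcam1 was higher (464 on the TKO-labelled array and 136 on the DKO-labelled array, log2 ratio 1.77), with a second probe set at 0.49, and Pdgfrb was lower (1423 and 3605, -1.34). Clu was at 0.63 at its brightest probe set, and Mfge8 at -0.16. Other Clu probe sets were at 1.56 and at least 2.13, past 2-fold, or under the floor on both arrays. Of 5 erythroid markers on the array only Epor was measured, at 61.3, under the floor, on the TKO-labelled array and 79.9 on the DKO-labelled array.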
